A study of Mus musculus with 3 samples.

Results

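The regions described here were stretches of 3'UTR that held a seed match of the miR-23 family and lay under Ago2 peaks in N2A cells. They were selected on the peaks themselves. A stretch was kept where at least 8 nt of the longest 3'UTR of a protein-coding gene were covered, on the same strand, by peaks of at least 2 of 3 libraries, and where it held a whole match to positions 2 to 8 of the miRNA. Of 30343 such covered stretches, 542 held a miR-23 match. They contained 558 matches, out of 3959 in all 3'UTRs, and belonged to 495 of the 3172 genes with a match. A further 129 matches lay in the same 3'UTRs but outside the stretches, and these served as the comparison.

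N2A is a mouse neuroblastoma cell line, used as a model of neurons. The cells were untreated, and the single group was basal N2A with 3 replicates, grown in high glucose medium with 10% serum and 1% antibiotics. The labels do not say whether the replicates were separate cultures. Cells at 80% confluency were exposed to ultraviolet light at 400 mJ per square cm and then 2 times at 200 mJ per square cm, Ago2 was precipitated with the RNA bound to it, and the RNA was sequenced (HITS-CLIP). With 1 group and no control precipitation among these libraries, no comparison between conditions could be made. All libraries came from this 1 cell line.

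MicroRNAs guide Argonaute proteins such as Ago2 to messenger RNAs, mostly by pairing of the seed, at the 5' end of the miRNA, with the 3'UTR. Bound transcripts are translated less and degraded faster. The miR-23 family has the members miR-23a and miR-23b, which share their seed and are each made from a cluster that also encodes a miR-27 and a miR-24. The family is known for roles in glutamine metabolism, apoptosis, TGF-beta signalling and angiogenesis.

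The mature sequences (RefSeq, mouse build GRCm38.p6) are shown because the seed, in capitals, set the match that was searched. The miR-23 seed differs from that of its cluster neighbours miR-27a and miR-27b, although both seeds begin with the same letters. No mature sequence of miR-23b-3p was used here, and the match was read from miR-23a-3p.
miR-23a-3p: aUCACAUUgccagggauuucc
miR-27a-3p: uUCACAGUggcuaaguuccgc
miR-27b-3p: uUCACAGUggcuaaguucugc
miR-24-3p: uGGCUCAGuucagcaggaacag

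The match in a 3'UTR is therefore AATGTGA, searched on the strand of the transcript. A match followed by A is an 8mer site (AATGTGAA) and any other match a 7mer-m8 site. The 11 sites below illustrate the regions: 8 of the first 10 in the order set for naming (all libraries first, then 8mers, then the shortest stretch), and 1 each in Etnk1, Celf1 and Spry2, which are described below. Capitals mark the match and the A that follows it. Coordinates are those of build GRCm38.p6 (mm10) and cover the 30 bases shown, all within annotated 3'UTRs.
Reck, chr4:43944746-43944775, plus strand: atgattatttgtacttccaagcAATGTGAA
Naa15, chr3:51473284-51473313, plus strand: tgattgaccataggaagtatgcAATGTGAA
Slc8a1, chr17:81388071-81388100, minus strand: caaattgtatgcttatctccggAATGTGAA
Cab39, chr1:85851260-85851289, plus strand: ctggattgtttttaaacagaacAATGTGAA
Zfp292, chr4:34804212-34804241, minus strand: tgagtccctgaaatgtaacggaAATGTGAA
Zfp955b, chr17:33304563-33304592, plus strand: ctaataaaaaccaaaatctatgAATGTGAA
Slc20a1, chr2:129211502-129211531, plus strand: gtgggatgggtgaatgaagtggAATGTGAA
Ssr2, chr3:88588230-88588259, plus strand: gtgctgttggtatattattagcAATGTGAA
Etnk1, chr6:143208014-143208043, plus strand: gatcttaaatttgtgtttctcaAATGTGAA
Celf1, chr2:91018980-91019009, plus strand: aaacaatgtaaagtgatttcacAATGTGAA
Spry2, chr14:105892263-105892292, minus strand: taatatgttgtacattcggaagAATGTGAA

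The libraries differed in how much they contributed. Replicates 1, 2 and 3 held 711377, 498071 and 829936 peaks, and these covered 6.64%, 17.6% and 17.5% of all 3'UTR bases. The peak rows give positions and no usable height, so occupancy could not be measured, and the read depth is unknown. Of 11 neuronal marker genes, 6 had a 3'UTR peak in every library. This was the case for 1 of 5 blood markers, 0 of 3 liver markers, 1 of 4 glial markers and 0 of 4 fibroblast and muscle markers, beside 23.9% of all genes. A peak is no measure of expression, and Nefl, a neurofilament gene, had no 3'UTR peak in any library.

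A miR-23 match was covered somewhat more often than other sequence of the same composition. Of all matches, 14.1% lay inside a stretch (Wilson 95% interval 13 to 15.2%, which covers counting error only). Of all 7-mer positions in 3'UTRs, 9.80% lay inside a stretch, and of the 7-mers with 5 A or T letters, as in the match, 11.6% did. Among 2525 such 7-mers with at least 500 positions, the miR-23 match ranked 201st, against a median of 11.4% and a 90th percentile of 13.8%. Most of the excess lay in the matches followed by A. The other 2509 matches were at 12%, near the 11.6% of the background. By library they were covered at 7.45%, 20.4% and 18.2%, against 7.10%, 18.6% and 18.5%, so they lay above the background in replicates 1 and 2 and below it in replicate 3. These percentages describe the selection and were not tested.

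Counted by gene, 15.6% of the genes with a match had a stretch. Their 3'UTRs were long, with a median of 2638 nt, compared with 2270 nt for genes with a match but no stretch and 960 nt for all genes. Covered positions on the opposite strand describe how strand-specific the coverage of the matches was. With peaks of the opposite strand, 19 matches (0.480%) lay inside a stretch. The number on the transcript's own strand was 29.4 times as high, and 4 of the 558 sites were also covered on the opposite strand in 2 libraries. No opposite-strand share is given for other sequence, so the ratio of 29.4 does not compare miR-23 matches with background.

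Taken library by library, matches were covered at 8.16% in replicate 1, 22.7% in replicate 2 and 20.2% in replicate 3. The 7-mers of the same composition were covered at 7.10%, 18.6% and 18.5%. The log2 ratio of the former to the latter was 0.20, 0.29 and 0.12, with a mean of 0.20 ± 0.08 (SD, n = 3). All 3 libraries were above 0, but the smallest two-sided exact p that 3 libraries allow is 0.25. Against 7-mers of any composition the mean ratio was 0.35, and with peaks shortened by 30 nt on both sides it was 0.32, where the libraries ranged from 0.10 to 0.60. Against the 7-mers of the same composition within 3'UTRs that hold a match, it fell to 0.14 (0.13, 0.20 and 0.08). Genes with a match had a 3'UTR peak in every library more often than all genes, at 41.4% and 23.9%.

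Most of the sites rested on replicates 2 and 3. Replicate 1 covered 207 of the 558 sites, replicate 2 covered 514 and replicate 3 covered 506. The pair of replicates 2 and 3 alone accounted for 351 sites (62.9%), replicates 1 and 2 alone for 52, replicates 1 and 3 alone for 44, and 111 (19.9%) were covered in every library. For all 7-mers of the same composition inside stretches the share covered in every library was 18%.

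The library left out of a selection gives a reading that the selection did not use. Of 163 matches chosen by replicates 1 and 2, 68.1% were covered in replicate 3, compared with 65.7% of the 7-mers of the same composition chosen in the same way. Replicate 2 covered 71.6% of 155 matches chosen by replicates 1 and 3, against 66.7%. Replicate 1 covered 24% of 462 matches chosen by replicates 2 and 3, against 22.1%. The difference was positive each time, with a mean of 3.08 ± 1.65 percentage points (SD, n = 3). These 3 readings share libraries and are given without a test.

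Site classes differed in coverage in the same order in each library. The 8mer sites lay inside a stretch in 17.7% of 1450 cases (15.8 to 19.8%) and the 7mer-m8 sites in 12% of 2509 (10.8 to 13.3%). A 7mer-A1 site, which pairs with positions 2 to 7 and is followed by A, did so in 13.4% of cases, and a 6mer, with neither, in 9.70%. The reverse complement of the match, a sequence of the same composition, was at 11.2%. By library, 8mers were covered at 9.38%, 26.6% and 23.7%, and 7mer-m8 sites at 7.45%, 20.4% and 18.2%. The 8mer value was the higher of the pair in all 3 libraries. The classes also differ in composition, with 6 A or T letters in the 8mer, 5 in the 7mers and 4 in the 6mer.

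**Figure D1:**
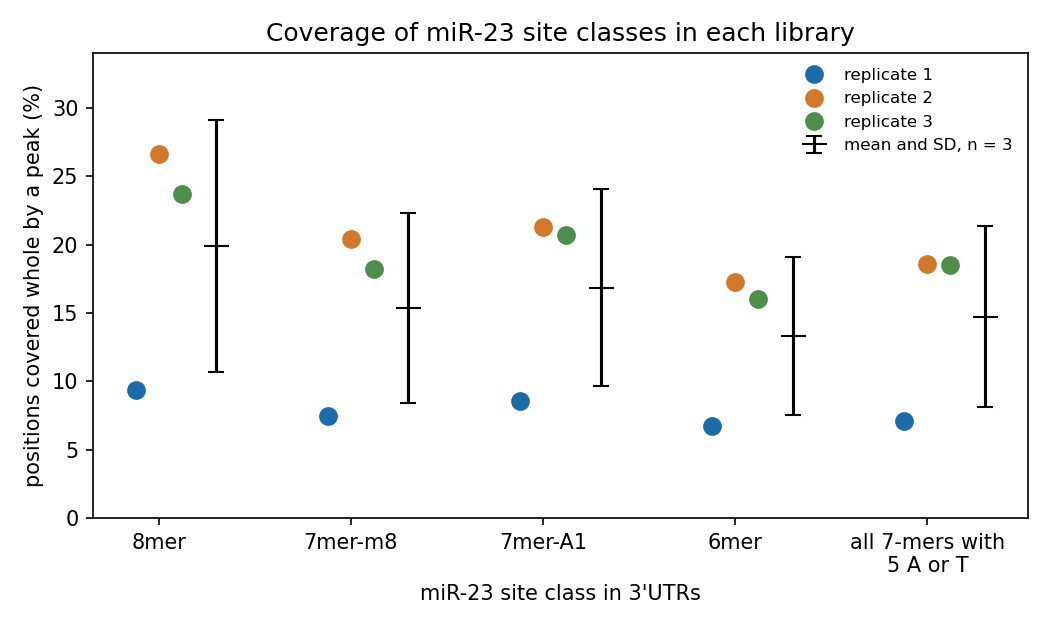
Percent of positions covered whole by a peak (vertical axis) for 4 miR-23 site classes and for all 7-mers with 5 A or T letters; points are the 3 libraries, bars the mean and SD (n = 3). Replicate 1 lies lowest throughout, and in each library the 8mers lie highest, at 9.38%, 26.6% and 23.7%.

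The base after the match was not used in the selection, so it could be tested. Of 557 sites at distinct positions, 257 (46.1%) were 8mers, compared with 49 of the 129 other matches in the same 3'UTRs (38.0%). This difference did not pass the two-sided Fisher's exact test (p = 0.0958, adjusted over 4 tests 0.192). That pooled comparison is uneven. 361 sites came from 3'UTRs with 1 match and so had no counterpart, while 3'UTRs with over 3 matches, in which 23.9% of matches were 8mers, gave 45 of the 129 other matches. A test stratified by 3'UTR, added after the data were seen, compared the 88 3'UTRs that held both kinds. There 50 of 96 sites were 8mers where 42.9 would come from an even split within each 3'UTR, an excess of 7.36 percentage points (exact p = 0.0588, adjusted 0.118). The 8mer share was thus higher by either measure without passing the threshold. For 7-mers of the same composition, an A followed in 29.7% of cases inside stretches and 28.3% outside.

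Pairing beyond the seed was rare. A 4 base match to positions 13 to 16 within 20 nt before the seed match was found at 24 of the 557 sites (4.31%) and at 7 of the 129 other matches (5.43%), a difference that did not pass Fisher's exact test (p = 0.637, adjusted 0.849). Zfp292 held one, the letters tccc near the start of the stretch shown above. The base before the match could pair with position 9 at 16.1% of the sites and 17.8% of the other matches in the same 3'UTRs.

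The sequence beside the sites was richer in A and T. Over 30 nt on each side, the median of the 3'UTR means was 63.3% A or T for the sites and 58.3% for the other matches of the same 3'UTRs. The sites were higher in 59 of 88 3'UTRs, lower in 24 and equal in 5 (exact two-sided sign test, p = 0.000155, adjusted 0.000618). The call was lost in 5 alternatives. These were the 59 3'UTRs with exactly 1 site and 1 other match, of which 36 were higher and 18 lower (adjusted p = 0.0793), the sets without replicate 2 or replicate 3 (adjusted p = 0.160 and 0.0554), the sites of all 3 libraries (0.143) and peaks of 86 to 200 nt (0.0557). The same leaning was present in covered sequence at large. In these 88 3'UTRs, 7-mers of the same composition had more A or T beside them inside stretches than outside in 75, with medians of 64.3% and 61.3%. Whether the difference was larger for miR-23 matches than for those 7-mers was not tested.

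**Figure D2:**
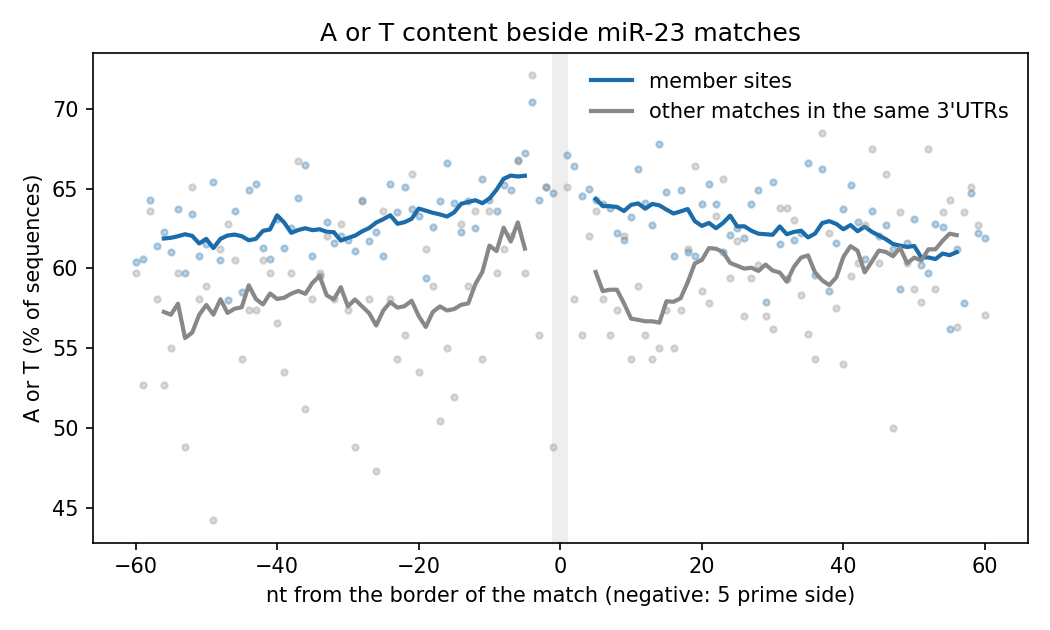
Percent of sequences with A or T (vertical axis) at each nt beside the match (horizontal axis, nt from the border of the match); points are single positions and lines a running mean. The sites inside stretches lie above the other matches of the same 3'UTRs over most positions. All sites are drawn, also those of 3'UTRs with no other match. The medians of 63.3% and 58.3% over 30 nt are from the 88 3'UTRs that hold both kinds.

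No difference in place along the 3'UTR passed the test. The distance to the nearer end of the 3'UTR was greater for the sites in 43 of 88 3'UTRs and smaller in 45, with medians of 727 and 759 nt (exact sign test, p = 0.915, adjusted 0.915). The place of the match within its peak was described without a test, since the rule keeps matches covered in at least 2 libraries, which favours the middle of peaks. In peaks of 86 to 200 nt, the match centre was within 25% of the peak's width from its centre in 56.9%, 64.6% and 58.9% of 137, 474 and 475 pairs of match and peak in replicates 1, 2 and 3. For 7-mers of the same composition that also lay inside stretches, the values were 52.4%, 52.7% and 53.0%. The median distance from the peak centre ran from 19.0 nt in replicate 2 to 21.5 nt in replicate 3, with replicate 1 between them.

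**Figure D3:**
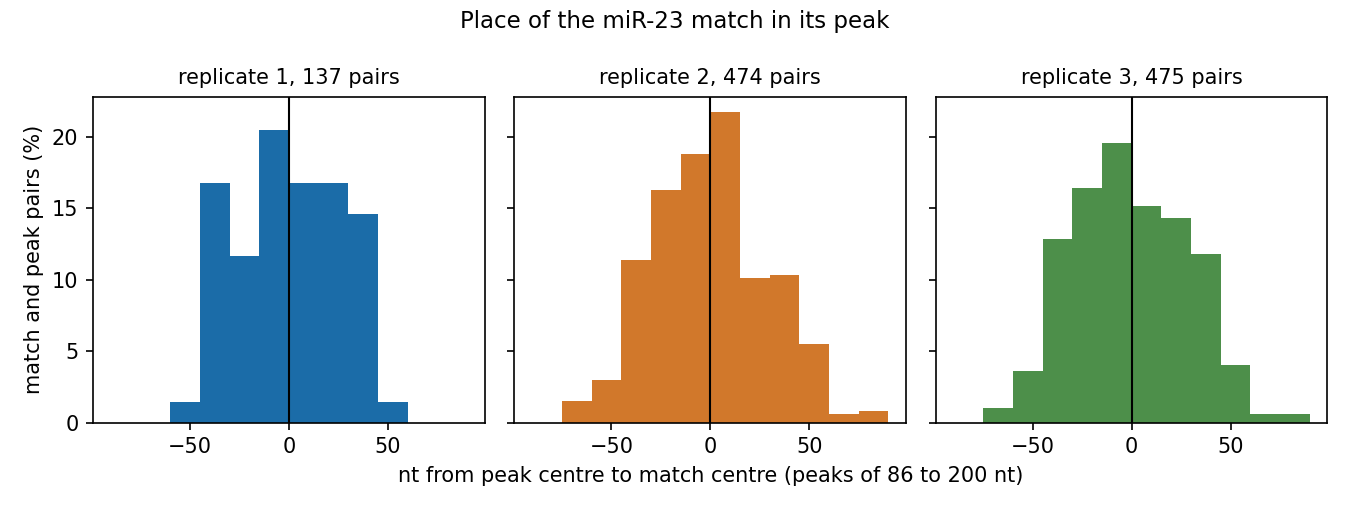
Distance of the match centre from the peak centre (horizontal axis, nt) as a percent of pairs (vertical axis) in each library, for peaks of 86 to 200 nt. The distributions centre near 0, with median distances from 19.0 nt (replicate 2) to 21.5 nt (replicate 3).

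The stretches themselves were short for the most part. Their length ran from 18 to 3664 nt, with a median of 138 nt and quartiles of 91 and 250 nt, while the median of all covered stretches was 86 nt. A longer stretch has more room for a match, so these medians do not compare like with like. The shortest, in Btbd7, measured 18 nt, and 13 sites lay in stretches over 1000 nt. Just outside the rule, 47 matches were cut by the border of a stretch and 793 were covered whole in 1 library.

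The 16 sites named first were all 8mers covered in every library, in stretches of 83 to 164 nt. Reck encodes a membrane-anchored inhibitor of matrix metalloproteinases. Its site lay 1402 nt after the stop codon and 32 nt before the annotated end of the 3'UTR, under peaks of 685, 116 and 217 nt in replicates 1, 2 and 3. The replicate 1 peak there was thus much wider than the other two.

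Naa15, an auxiliary subunit of the main N-terminal acetyltransferase, had its site 505 nt into a 3'UTR of 3707 nt, under peaks of 84, 96 and 97 nt. Slc8a1, a sodium and calcium exchanger of the plasma membrane, had the longest 3'UTR of the 16 (15586 nt) and its site 612 nt into it, under peaks of 79, 88 and 81 nt. Its 3 other matches, at 7014, 8538 and 14103 nt, lay outside the stretches. Cab39 encodes a scaffold protein that activates the kinase Lkb1. It had 2 sites, an 8mer at 2060 nt covered in every library by peaks of 96, 100 and 86 nt, and a 7mer-m8 at 2195 nt covered in replicates 2 and 3.

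The other named sites fall under varied functions. Zfp292 and Zfp955b encode zinc finger proteins. Some zinc finger genes have near-identical relatives with which reads could be shared, and this was not examined for either gene. Slc20a1 is a phosphate transporter, with a site 678 nt into a 3'UTR of 771 nt. Csnk1g3 encodes a casein kinase 1, Ssr2 a subunit of the translocon-associated complex of the endoplasmic reticulum, and Snx27 a sorting nexin that returns receptors to the cell surface. In Snx27 the site lay under peaks of 104 and 96 nt in replicates 1 and 2, and in replicate 3 it was covered only by adjoining peaks joined together.

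Prtg encodes protogenin, a receptor of the embryonic nervous system, and its site lay 179 nt after the stop codon. Nxf1, the main export receptor of messenger RNA, had its site in a stretch that runs across an exon border. Nup62 is a nucleoporin, Uqcrfs1 the iron-sulphur subunit of respiratory complex III, and Zcchc2 a zinc finger protein. Their peaks measured 89 to 160 nt.

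Several genes held more than 1 site, 54 in all. Etnk1, which encodes ethanolamine kinase of phospholipid synthesis, had 6 sites in 6 stretches, and these were all of its matches. Of the 6, 4 were 8mers and 3 were covered in every library. The latter lay 1049, 3018 and 4579 nt after the stop codon, under peaks of 93, 94 and 92 nt in replicate 1. Replicate 1 covered none of the other 3 sites.

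Celf1, an RNA-binding protein that governs splicing and decay, had 4 of 4 matches inside stretches, at 2014, 3990, 4817 and 5636 nt, of which the first and last were covered in every library. Sesn3, a stress-induced sestrin, had 4 of 4 matches in 3 stretches. Of the 2 neighbouring sites at 648 and 674 nt, the first was covered in every library and the second in replicates 1 and 3. Cnot6l, a deadenylase of the CCR4-NOT complex, had 3 of 3 matches inside stretches, none of them covered in all libraries. Longer 3'UTRs hold more matches and more peaks, and these counts are given as a description.

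Of the remaining genes with 2 sites, 4 were named by symbol order. Abi2, a regulator of actin branching, had 2 of its 3 matches inside stretches. Atp11b, a lipid flippase, had 2 of 2, both 8mers, at 278 and 565 nt. In Atp6v1a, a subunit of the proton pump of lysosomes, both sites shared a stretch of 329 nt. The 4 sites of Abi2 and Atp11b were all covered in replicates 2 and 3 only. Brwd1, a bromodomain protein, had 2 of 2, and the site 93 nt after its stop codon was covered in every library.

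Genes that are widely cited as miR-23 targets were counted in the same way. Of 27 such genes, listed from general knowledge, 26 had a 3'UTR here, 20 held a match and 4 of these had a stretch, a share near the 15.6% of all genes with a match. Spry2, an inhibitor of receptor tyrosine kinase signalling, had an 8mer 532 nt after the stop codon that was covered in every library, under peaks of 81, 395 and 207 nt. Xiap, an inhibitor of caspases, had an 8mer covered in replicates 2 and 3 (peaks of 81 and 108 nt), while its second match was covered in replicate 2 alone.

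Apaf1, the core of the apoptosome, had a 7mer-m8 covered in replicates 2 and 3, by peaks of 83 nt in both. Sema6d, a guidance cue for axons, had an 8mer in replicates 2 and 3, and its other 8mer was covered in no library. Among the 16 others were Fbxo32, Trim63, Tgfbr2, Smad3, Smad5, Met, Plau, Mtss1, Hmgb2, Cxcl12, Tab3, Chuk and Tnfaip3. In Smad5, a transducer of BMP signals, 1 match was covered in replicate 2 and the other in replicate 1. Met, the receptor of hepatocyte growth factor, had no 3'UTR peak of any kind in any library.

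The pathway lists gave small counts. Of 20 genes of glutamine metabolism, 4 held a match and 3 of these had a stretch, namely Slc38a1 and Slc38a2, which carry glutamine into cells, and Gmps, which uses it to make GMP. The Slc38a1 site lay 9 nt before the annotated end of its 3'UTR, and the Slc38a2 site was covered in every library, in a stretch of 1102 nt. Of 28 apoptosis genes, 8 held a match and 3 had a stretch (Apaf1, Xiap and the survival factor Mcl1).

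Of 28 TGF-beta and BMP genes, 9 held a match and 2 had a stretch, the signal transducer Smad2 and the repressor Tgif1, of which Tgif1 was covered in every library. Of 17 genes of the nuclear lamina and its chromatin, 6 held a match and 4 had a stretch, namely Lbr, Tmpo and Lemd3, proteins of the inner nuclear membrane, and the chromatin organiser Satb1. Tmpo had 2 8mers at 322 and 403 nt in the same stretch. Of 30 semaphorin and plexin genes, 4 held a match and Sema6d had a stretch. Of 20 genes upstream of NF-kB, 4 held a match and 0 had a stretch. Each share stands beside the 15.6% of all genes with a match, on few genes, and none was tested. In the order given, 13, 16, 22, 10, 12 and 13 genes of these lists had a 3'UTR peak in every library, beside 23.9% of all genes.

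Finally, the hairpins of the 2 clusters were examined for peaks. Mir23a had 1 peak in each library, of 91, 100 and 103 nt, and with 30 nt taken off both sides each lay over miR-23a-3p and none over miR-23a-5p. Mir23b had 1, 2 and 2 peaks, and in replicates 2 and 3 the central part of 1 of them lay over miR-23b-5p. The position of miR-23b-3p was not available here, so no peak of Mir23b could be compared with that arm. Mir27a, in the cluster of Mir23a, had 0 peaks in each library, and Mir27b had 1 in replicate 2. Mir24-2 had peaks in replicates 1 and 3, and Mir24-1 had none on its own strand. Both miR-23 hairpins were thus the only ones of the 6 with a peak in every library. Mir23b lies within another transcript of the same strand, 2010111I01Rik, and whether its peaks came from that transcript was not tested.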

How the data were processed

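Ago2 HITS-CLIP peaks of 3 N2A libraries (1 group) were deposited by the authors as one table of intervals with strand, library (unit "other") and a score column. The deposited score was not used, since its meaning is not given in the sources used here. The submitters' processing notes name FastQC, cutadapt, STAR and build mm10; the peak caller, its threshold and the read depth are not given in the sources used here. The table lists peaks per library, and no other column of per-sample values was left out.

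The longest 3'UTR of each protein-coding gene (GENCODE M21, stop codon excluded, 21028 genes) was joined over its exons, and bases covered on the same strand were counted per library in Python 3.11.15 with numpy 2.4.6, pandas 2.3.3 and scipy 1.17.1. Intervals start at 0-based positions, and printed positions are 1-based. Peaks appear to be padded by the caller, which widens stretches, so an alternative took 30 nt off both sides. Fisher's exact tests and exact sign tests, two-sided, were adjusted over 4 tests by Benjamini-Hochberg at 0.05. The tests take matches or 3'UTRs as units and say nothing of spread between libraries. They were tested on simulated coverage, which showed that the pooled 8mer test leans towards covered sites and led to the stratified exact test.

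Genes were named by rule: the first 16 sites by number of libraries, 8mer and shortest stretch; the cited targets; up to 8 genes with 2 or more sites; and the cluster hairpins. Some of these genes and sequences are not reported here. The members and lists were chosen with earlier results of these data known. Sequences are from RefSeq (GRCm38.p6). Alternatives changed the libraries required, the peaks used, the overlap, the flank, the pairing window and the background.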

Additional observations from a re-analysis of the deposited data

How the results depend on the processing

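No paired analysis was possible because there is a single group here. Of 79 alternatives over 7 results, 51 kept the direction and the side of the threshold or stayed within the spread. The 542 stretches became 111 with all 3 libraries required and 249 with peaks shortened by 30 nt, and 153 to 451 with 1 replicate left out, lowest without replicate 2 (162 without replicate 3). The share of matches inside stretches (14.1%) became 2.80% with all libraries, 6.39% with shortened peaks, 9.70% with peaks of 86 to 200 nt and 15.3% with any overlap, and 3.92 to 11.7% with 1 replicate left out. Apart from the any-overlap setting, which keeps the covered bases and admits matches cut by a border, these settings leave fewer covered bases by construction.

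The mean log2 ratio was 0.32 with shortened peaks and 0.35 against all 7-mers, 0.14 against 7-mers of 3'UTRs with a match, and 0.16 to 0.24 with 1 replicate left out. The 8mer difference stayed positive in the alternatives run, at 3.30 to 9.56 points with 1 replicate left out, and passed the threshold in none. Except for the stratified test, these alternatives used the pooled comparison, which leans towards covered sites. A shared positive sign is therefore no measure of stability. By the exact sign test, the flank result (71.1% of 3'UTRs, ties left out) lost its call with all libraries required (71.4%, adjusted p = 0.143), with peaks of 86 to 200 nt (65.7%, 0.0557) and with 1 site against 1 match (66.7%, 0.0793). It ranged from 66.0 to 71.1% with 1 replicate left out. The call was also lost without replicate 2 and without replicate 3, which left 49 and 40 3'UTRs. All libraries required, peaks of 86 to 200 nt and 1 site against 1 match left 30, 73 and 59 of the 88 3'UTRs. Shortened peaks left 54 and kept the call (71.2%), so fewer 3'UTRs did not always go with a lost call. The cause was not tested.

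Supplementary pairing (-1.12 points) changed sign with all libraries (1.80), with shortened peaks (2.96) and in the stratified test (0.955), and was -6.46 with the wider pairing windows (positions 12 to 15, 13 to 16 or 14 to 17; Fisher's exact p = 0.0486, adjusted 0.0972). It ranged from -1.37 to 3.68 with 1 replicate left out. The distance result (48.9%) changed side with all libraries (53.3%), shortened peaks (51.9%), 1 site against 1 match (50.8%) and distance to the annotated 3' end (56.8%), and ranged from 46.8 to 55.1% with 1 replicate left out. Neither passed the threshold in any setting. The stratified test, the 1 site against 1 match setting and the omission of matches covered on the opposite strand were chosen after seeing the data.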

Other observations

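Genes of the miRNA machinery itself were among those with a stretch. This list and the next were chosen after the values were seen, so the counts are descriptions. Of 31 genes of miRNA processing and silencing, 10 held a miR-23 match and 7 of these had a stretch, beside 15.6% of all genes with a match. They were Ago2, the protein precipitated here, the scaffolds Tnrc6a, Tnrc6b and Tnrc6c that link Argonaute to deadenylases, the deadenylases Cnot6l and Cnot7, and the decapping activator Dcp1a. Tnrc6a had an 8mer 176 nt after the stop codon that was covered in every library, and a second site covered in replicates 1 and 2, where the replicate 1 peak was 2694 nt wide. Tnrc6b had 2 8mers, both covered in replicates 2 and 3, in a 3'UTR of 11609 nt. Of 28 RNA-binding proteins that act on translation and stability, 12 held a match and 8 had a stretch, among them Cpeb2 and Cpeb4, which bind cytoplasmic polyadenylation elements, with 2 sites each. A 3'UTR peak in every library was held by 21 of the 31 genes and 22 of the 28. This was the case for 41.4% of genes with a match and 23.9% of all genes, so the 15.6% comes from genes less often covered.

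Matches of other miRNAs were counted inside the 542 stretches. The miR-27 match ACTGTGA lay in 24 of them (4.43%), at 0.196 per kb, compared with 0.146 per kb in all covered stretches and 0.117 per kb in the 3'UTRs of these genes outside them. Among these genes were Apaf1, Spry2 and Cpeb4. The miR-24 match CTGAGCC lay in 9 stretches, at 0.0734 per kb against 0.0894 in all stretches. The miR-17 match GCACTTT lay in 11, at 0.0897 against 0.174. The miR-16 match TGCTGCT lay in 28, the most of the miRNAs counted, at 0.261 against 0.233, and the let-7a match CTACCTC in 10, at 0.0815 against 0.0720. The rates were also lower than in all stretches for miR-19b (0.106 against 0.133), miR-92a (0.0734 against 0.0937), miR-9 (0.0815 against 0.0940) and miR-30a (0.114 against 0.176), so that of 9 miRNAs 3 were higher and 6 lower. Against the rest of the same 3'UTRs, miR-19b (0.106 against 0.102) and miR-92a (0.0734 against 0.0459) were higher instead, and the other directions were unchanged. The stretches share libraries and genes, and these rates were not tested.

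Over all 3'UTRs, the share of matches inside stretches was 19.9% for miR-92a-3p, 19.3% for miR-17-5p, 16.2% for miR-30a-5p, 15.9% for miR-142a-5p, a miRNA known from blood cells, and 15.4% for miR-19b-3p. That for miR-23 (14.1%) lay below these. It lay above miR-21a-5p (13.6%), miR-155-5p (13.1%), miR-16-5p (12.5%), miR-27a-3p (11.6%), let-7a-5p (10.6%), miR-9-5p (9.95%) and miR-24-3p (6.73%). The matches differ in A or T content, from 2 letters in miR-24 to 6 in miR-142a-5p, and covered sequence at large was richer in A or T, so the order is a description.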
